A study of Homo sapiens with 4 samples.

Results

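The genes described here are 10 heat shock proteins and co-chaperones of the cytosol and the mitochondrion: HSPA1A, HSPA1B, HSPA8, HSPH1, HSP90AA1, DNAJB1, HSPB1, HSPD1, HSPE1 and BAG3. They were chosen by name, and every probe set that the platform annotation gives to any of them was taken. That came to 24 probe sets of 54675 in the table. Of the 24, 17 named 1 gene and 7 named several. HSPA1A and HSPA1B had no probe set of their own: they share 3, of which 1 is also annotated to HSPA1L, so their signals are read as those of the pair. All 4 probe sets of HSPA8 are also annotated to SNORD14C and SNORD14D, small nucleolar RNAs that lie in introns of that gene.

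The samples were M14 cells, an established human melanoma line, stably carrying FLAG-tagged ARHGAP8 in pIRES2 or the empty pIRES2 vector, which holds eGFP. The ARHGAP8 insert is a coding region without exon 5. All cells were selected with G418, sorted for eGFP and kept in G418 for 4 days, either embedded in growth factor-reduced Matrigel (3D) or on collagen-coated plastic (2D). The groups were thus the ARHGAP8 line in 3D, the empty-vector line in 3D, the ARHGAP8 line in 2D and the empty-vector line in 2D. Each was 1 array of total RNA, with 1 transfected line per plasmid, so no group has a replicate error, and an effect of ARHGAP8 cannot be told apart from other differences between the transfected lines. Values are MAS5 signal intensity on a linear scale as deposited. Signals below 72.3, the median over all probe sets and arrays, were set to that floor before log2 was taken.

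Heat shock proteins are chaperones that hold, fold and disaggregate other proteins. In the cytosol a J-domain protein such as DNAJB1 hands an unfolded client to Hsp70 (HSPA8, HSPA1A, HSPA1B), a nucleotide exchange factor such as HSPH1 or BAG3 resets the Hsp70, and Hsp90 takes on many clients from it. HSPB1 holds unfolded clients without ATP, and the HSPD1 barrel with its HSPE1 lid folds proteins in the mitochondrial matrix. The factor HSF1 switches these genes on under heat or proteotoxic stress by binding heat shock elements, repeats of a GAA triplet in alternating orientation.

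Promoters are shown because HSF1 acts through them. Their part in the differences between members was not tested. RefSeq windows (GRCh38.p14) from 250 bases before to 50 bases after a start were found for all 10 genes, 14 windows in all, since some genes have several starts. The full element of 3 units was searched as GAANNTTCNNGAA on both strands, where it reads TTCNNGAANNTTC on the other. It lay in 3 of the 14 windows, those of HSPA8, HSP90AA1 and HSPD1, and in 0.49% of all 35116 windows. The 2-unit form GAANNTTC, which is part of the full element and reads the same on both strands, lay in 8 of the 14 windows, of 7 genes, and in 6.77% of all. The other 2-unit form, TTCNNGAA, lay in 3 of the 14 and in 7.74% of all. With at most 1 of the 9 fixed letters different, a setting added after the windows were seen, the full element lay in 8 of the 14 and in 6.24% of all. The windows of HSPH1, BAG3 and HSPE1 held none of these forms. The sequences below run 5′ to 3′ on the gene's strand, with positions counted from the start used. HSP90AA1, HSPD1 and DNAJB1 have several starts, and the window shown was chosen for holding the form marked. Another window of each held none of the forms searched. The starts used for these genes lie inside their annotated loci. Capitals mark the full element in HSPA8, HSP90AA1 and HSPD1 and the 2-unit form in DNAJB1 and HSPA1A. HSPH1 and BAG3 are given because their probe sets were the members past the test for culture.
HSPH1, chr13:31162389-31162638, minus strand, bases -250 to -1: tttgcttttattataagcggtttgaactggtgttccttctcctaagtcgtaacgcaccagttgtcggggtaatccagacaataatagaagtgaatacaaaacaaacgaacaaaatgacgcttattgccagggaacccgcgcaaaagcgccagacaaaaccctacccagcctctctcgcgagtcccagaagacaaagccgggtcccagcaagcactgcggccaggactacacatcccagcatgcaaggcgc
BAG3, chr10:119651130-119651379, plus strand, bases -250 to -1: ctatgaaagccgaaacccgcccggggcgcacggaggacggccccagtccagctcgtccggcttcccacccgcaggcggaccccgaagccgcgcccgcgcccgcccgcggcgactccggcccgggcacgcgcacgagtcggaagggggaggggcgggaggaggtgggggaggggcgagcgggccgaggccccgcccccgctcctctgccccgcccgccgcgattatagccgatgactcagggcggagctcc
DNAJB1, chr19:14518398-14518497, minus strand, bases -100 to -1: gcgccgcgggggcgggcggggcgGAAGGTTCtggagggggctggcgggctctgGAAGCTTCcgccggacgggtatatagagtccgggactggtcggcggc
HSPA8, chr11:123062137-123062386, minus strand, bases -250 to -1: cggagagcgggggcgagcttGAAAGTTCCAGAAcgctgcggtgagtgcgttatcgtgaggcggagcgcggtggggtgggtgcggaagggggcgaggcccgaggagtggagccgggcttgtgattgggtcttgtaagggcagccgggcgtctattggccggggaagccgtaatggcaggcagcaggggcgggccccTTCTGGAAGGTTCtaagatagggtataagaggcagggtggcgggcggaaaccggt
HSP90AA1, chr14:102087045-102087164, minus strand, bases -120 to -1: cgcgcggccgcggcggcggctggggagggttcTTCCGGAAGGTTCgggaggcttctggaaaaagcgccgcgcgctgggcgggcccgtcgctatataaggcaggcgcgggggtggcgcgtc
HSPD1, chr2:197500061-197500090, minus strand, bases -250 to -221: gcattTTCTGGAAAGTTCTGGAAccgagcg
HSPA1A, chr6:31815413-31815492, plus strand, bases -130 to -51: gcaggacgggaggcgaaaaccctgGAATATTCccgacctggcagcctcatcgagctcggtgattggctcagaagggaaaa
HSPA8 has a full element near its start and another far upstream in the window. In HSPD1 a pair of overlapping full elements forms 1 run of 4 units. The windows of HSPA1A and HSPA1B were 92.0% identical over 301 aligned columns, and their 2-unit form stood at -106 and -105. A match is a description of letters and not a bound site, and these windows say nothing of elements outside them.

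Some facts of the series bear on all values. ARHGAP8 itself could not be read, since its 4 probe sets, all shared with a readthrough gene, gave signals of 4.02 to 14.8. The ARHGAP8 3D array stood apart in its control probe sets, with a median 18S ribosomal RNA signal of 626, against 27.7 to 49.4 on the other arrays. For that reason the 3D over 2D ratio of the empty-vector line, which does not use it, is given for the brightest probe set of each member gene. For ACTB the signal of the 3′ over the 5′ control probe set, a sign of RNA quality, was 1.32 and 1.23 in 3D, against 1.05 and 1.10 in 2D. For GAPDH the same ratio differed little, at 0.925 and 0.901 in 3D, against 0.899 and 0.874 in 2D. The ACTB ratio moved with the culture, and its part in the culture results was not tested. Of 7 melanocytic markers with a probe set, 6 were above the floor on all 4 arrays, MITF, SOX10 and S100B among them, while PMEL was below it on all. Their summed signals were 8495 and 8774 in 3D, against 5169 and 7918 in 2D. Of other cell types, 0 of 3 leukocyte markers, 2 of 4 endothelial, 2 of 4 keratinocyte and 3 of 6 fibroblast markers exceeded the floor on some array. The summed signals were 413.7 and 471 in 3D against 419 and 396 in 2D for endothelial, 1342 and 736 against 1173 and 928 for keratinocyte, and 610.3 and 722 against 529 and 655 for fibroblast markers, and the part of these markers in the results was not tested.

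The first comparison was of culture in gel with culture on plastic. HSPH1 and BAG3, which both release nucleotide from Hsp70, fell in 3D in both lines. HSPA8, HSPA1A and HSPA1B, and HSP90AA1 gave small differences on their brightest probe sets, none past the test. Signal level differed among these genes, and its part was not tested. All HSPA8 and HSP90AA1 probe sets had mean signals above 4000, where 0 of 264 probe sets fell. The probe set of BAG3 and the brightest of HSPH1 and of the HSPA1A and HSPA1B pair lay between 500 and 2000, where 5.58% fell. Another HSPA8 probe set, at -0.38, passed only after quantile normalization. Of 11 other Hsp70 exchange and partner genes 1 fell. DNAJB1 was lower in 3D on all arrays without passing the test. HSPB1 was slightly higher in both lines. The brightest probe sets of the mitochondrial pair HSPD1 and HSPE1 were higher in 3D with ARHGAP8 but lower in 3D with empty vector, and neither passed.

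**Figure D1:**
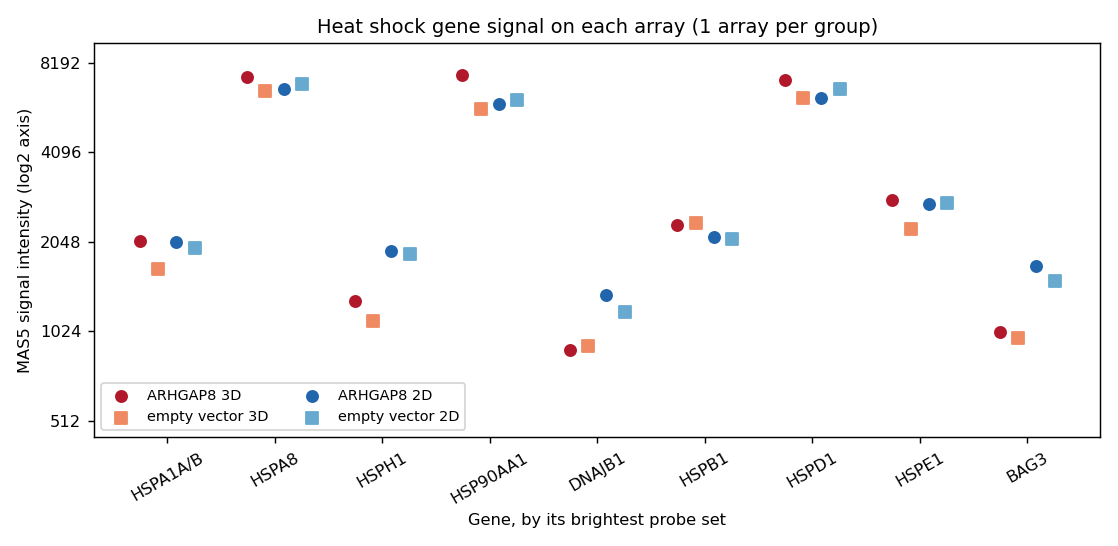
MAS5 signal intensity (vertical axis, log2 scale) of each gene's brightest probe set on each array, 1 point per array; HSPA1A and HSPA1B share 1. For HSPH1, DNAJB1 and BAG3 both 3D points lie below both 2D points, and for HSPB1 above them.

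HSPH1 is an Hsp110 protein that acts as a nucleotide exchange factor and prevents aggregation. Its brightest probe set, 206976_s_at, read 1292 and 1109 in 3D in the ARHGAP8 and empty-vector lines, against 1900 and 1859 in 2D. Both 3D arrays were below both 2D arrays, with ratios of -0.56 and -0.75 in the 2 lines. In bulk RNA, fewer cells with a transcript and less of it per cell cannot be told apart. The additive fit gave -0.65 ± 0.16 log2 (moderated SE, 4 arrays), a 1.57-fold lower signal in 3D (limma, Benjamini-Hochberg adjusted p 0.0400). The second probe set, 208744_x_at, read 284 and 294 in 3D, against 795 and 623 in 2D. Its ratios were -1.48 in the ARHGAP8 line and -1.08 in the empty-vector line. It fell by 1.28 ± 0.19, 2.44-fold (limma, adjusted p 0.00133). The third, 235573_at, was dim, with 79.7 and 46.3 in 3D, against 115 and 86.9 in 2D. It went the same way at -0.40 and did not pass (adjusted p 0.353, limma). Its signal with empty vector in 3D lies below the floor, and without a floor the difference was -0.72. The size of the HSPH1 difference therefore depends on the probe set, while its direction was shared by all 3.

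BAG3 couples Hsp70 to small heat shock proteins and to selective autophagy of damaged proteins. Its probe set read 1014 and 971 in 3D in the ARHGAP8 and empty-vector lines, against 1700 and 1515 in 2D. The groups did not overlap, and the lines gave ratios of -0.75 and -0.64. It fell by 0.69 ± 0.16 log2 (moderated SE, 4 arrays), a 1.62-fold lower signal (limma, Benjamini-Hochberg adjusted p 0.0277).

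DNAJB1 is the stress-inducible J-domain partner of Hsp70. Its brighter probe set, 200666_s_at, read 887 and 911 in 3D, against 1359 and 1188 in 2D, ratios of -0.61 in the ARHGAP8 line and -0.38 in the empty-vector line. The difference was -0.50 ± 0.16, with a 95% interval of -0.85 to -0.15, and did not pass over all probe sets (adjusted p 0.114, limma). The other, 200664_s_at, read 498 and 479 in 3D, against 579 and 534 in 2D, a difference of -0.19. Both probe sets had every 3D array below every 2D array, by unequal amounts.

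With 1 residual degree of freedom the adjusted p-values may be too small. The calls for HSPH1 and BAG3 lie close to the threshold except for 208744_x_at of HSPH1. That probe set passed under 8 of the 9 settings it was fitted in, the reported one included, BAG3 under 5 of 10 and 206976_s_at under 4 of 10.

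**Figure D2:**
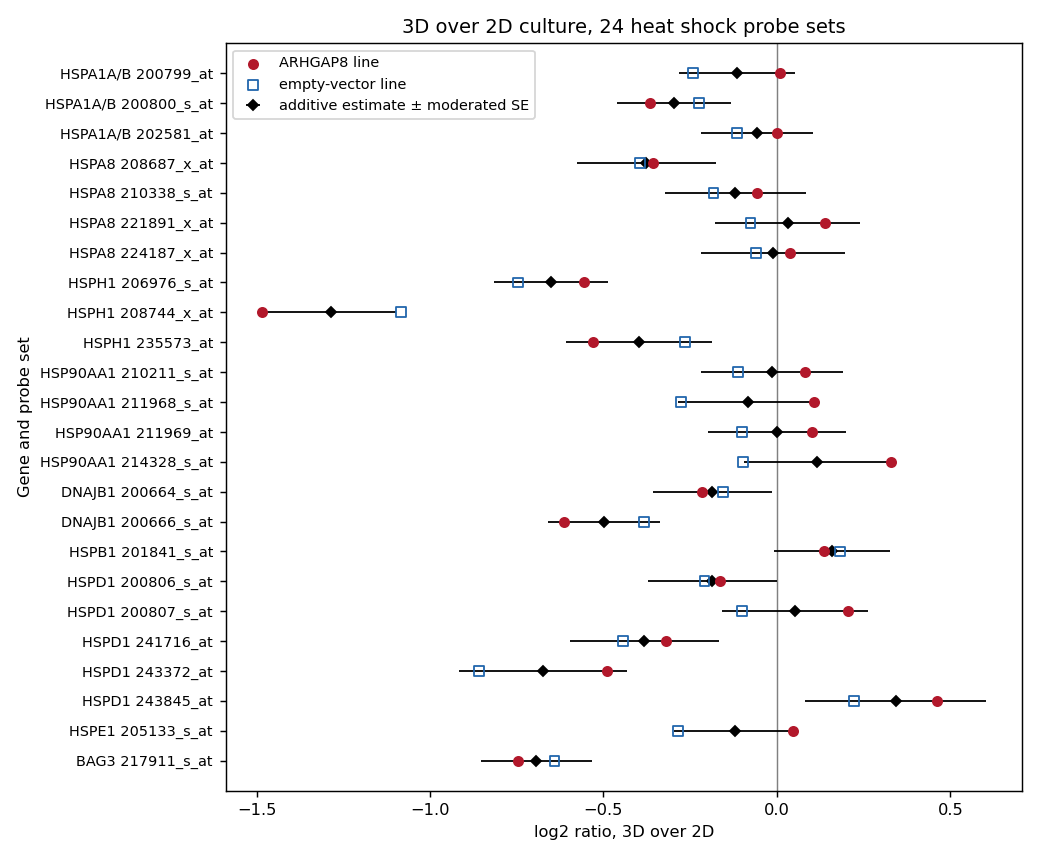
The log2 ratio of 3D over 2D signal (horizontal axis) for each of the 24 probe sets, in the ARHGAP8 line (filled circles) and the empty-vector line (open squares), with the additive estimate and its moderated SE (diamonds and bars). The probe sets of HSPH1, BAG3 and DNAJB1 lie left of 0 in both lines, and those of HSP90AA1 spread around 0.

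HSPA8 is the constitutive cytosolic Hsp70. Its brightest probe set, 221891_x_at, read 7339 and 6565 in 3D in the ARHGAP8 and empty-vector lines, against 6669 and 6921 in 2D. The cultures overlapped, with ratios of 0.14 in the ARHGAP8 line and -0.076 in the empty-vector line. The additive difference was 0.031 with a 95% interval of -0.42 to 0.48, turning to -0.15 after quantile normalization. The probe sets 224187_x_at and 210338_s_at gave -0.012 and -0.12, and over all settings ranged down to -0.19 and -0.29. The fourth, 208687_x_at, stood below them at -0.38 ± 0.20, with 5120 and 5180 in 3D, against 6557 and 6814 in 2D (adjusted p 0.355, limma). It did pass after quantile normalization, at -0.55 with an adjusted p of 0.0443 in limma, so the HSPA8 probe sets do not give 1 answer.

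HSPA1A and HSPA1B encode the stress-inducible Hsp70. They lie 9796 bases apart on chromosome 6 (HSPA1A at chr6:31815543-31817942, HSPA1B at chr6:31827738-31830254, GRCh38.p14). Their shared probe set 200799_at read 2056 and 1654 in 3D, against 2043 and 1954 in 2D. The ARHGAP8 line gave a ratio of 0.0092 and the empty-vector line -0.24. The additive difference was -0.12 (95% interval -0.47 to 0.24). The second shared probe set, 202581_at, gave -0.057, and 200800_s_at, also annotated to HSPA1L, gave -0.30; none passed.

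HSP90AA1 is the inducible cytosolic Hsp90. Its 4 probe sets gave differences between -0.085 and 0.12, with adjusted p of 0.834 or more in limma. The highest, that of the brightest probe set, was -0.069 after quantile normalization. Over all settings 210211_s_at, 211968_s_at and 211969_at ranged down to -0.19, -0.26 and -0.20, none past the test. The brightest, 214328_s_at, read 7443 and 5710 in 3D, against 5929 and 6107 in 2D. The 3D arrays lay on both sides of the 2D arrays, with a ratio of 0.33 in the ARHGAP8 line and -0.097 in the empty-vector line, and its 95% interval ran from -0.33 to 0.57. In all 4 the ARHGAP8 line was higher in 3D and the empty-vector line lower in 3D.

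HSPB1, the small heat shock protein Hsp27, read 2335 and 2370 in 3D, against 2126 and 2088 in 2D. Both 3D arrays exceeded both 2D arrays by a small margin, with ratios of 0.13 and 0.18 in the ARHGAP8 and empty-vector lines, and the difference of 0.16 ± 0.17 did not pass (95% interval -0.20 to 0.52; adjusted p 0.680, limma).

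HSPD1 and HSPE1, the mitochondrial Hsp60 and Hsp10, are neighbours on chromosome 2 whose annotated ends lie 105 bases apart (HSPD1 at chr2:197486584-197500274, HSPE1 at chr2:197500379-197503449). The brightest HSPD1 probe set, 200807_s_at, read 7160 and 6228 in 3D, against 6213 and 6680 in 2D. HSPE1 read 2837 and 2266 in 3D, against 2749 and 2761 in 2D. In both genes the ARHGAP8 line was higher in 3D, with ratios of 0.20 and 0.045, and the empty-vector line lower, with -0.10 and -0.29, and the additive differences were 0.052 and -0.12. That of HSPD1 was -0.12 after quantile normalization and -0.17 over the mean of its probe sets. The second bright HSPD1 probe set, 200806_s_at, gave -0.19, with 3710 and 3990 in 3D, against 4153 and 4612 in 2D. Its other 3 probe sets were dim, with every signal between 57.0 and 141, and disagreed: -0.38 for 241716_at, -0.67 for 243372_at and 0.34 for 243845_at. None of the 5 passed, and the lowest adjusted p was 0.153 in limma, for 243372_at.

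All 24 probe sets entered the test, for which a signal had to exceed the floor on 2 arrays or more, and 21 exceeded it on every array. In 3D 3 of them fell and 0 rose. Over all 28651 probe sets tested, 1.87% fell and 1.63% rose by the same test, 535 and 466 probe sets; after cyclic loess normalization 218 fell and 298 rose. At an unadjusted p under 0.05 the members counted 5 of 24, against 17.6% of all. The median difference was -0.12 over the 24 and 0.034 over all. Both 3D arrays lay below both 2D arrays for 12 of the 24, against 21.9% of all probe sets, and above them for 2 of the 24, against 26.2%. In the empty-vector line alone, without the ARHGAP8 3D array, 22 of 24 ratios were below 0 with a median of -0.22. In the ARHGAP8 line 12 of 24 were below 0 with a median of -0.027. Over all probe sets tested the median ratio was 0.0037 in the empty-vector line, with quartiles of -0.25 and 0.27. In the ARHGAP8 line it was 0.039, with quartiles of -0.25 and 0.33. These values depend on the scaling. After quantile normalization the median difference was -0.22 over the 24 and 0.0049 over all. By limma 11 of 24 were then under an unadjusted p of 0.05, against 4659 of 28639 over all. Probe sets of 1 gene share their target, so these are not independent counts.

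Members differed in signal level. Of the 24, 7 had a mean signal between 500 and 2000, where 5.58% of all probe sets fell, and 2 of the 7 did. Another 10, all of HSPA8, HSP90AA1 and HSPD1, lay above 4000. There, of 264 probe sets, 0 fell and 4 rose in 3D by limma, the median difference of all was 0.21, and that of the 10 members was -0.013. Differences among bright probe sets were narrow in general: 95% of the 264 differed by less than 0.45, against 0.87 for mean signals of 1000 to 2000.

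**Figure D3:**
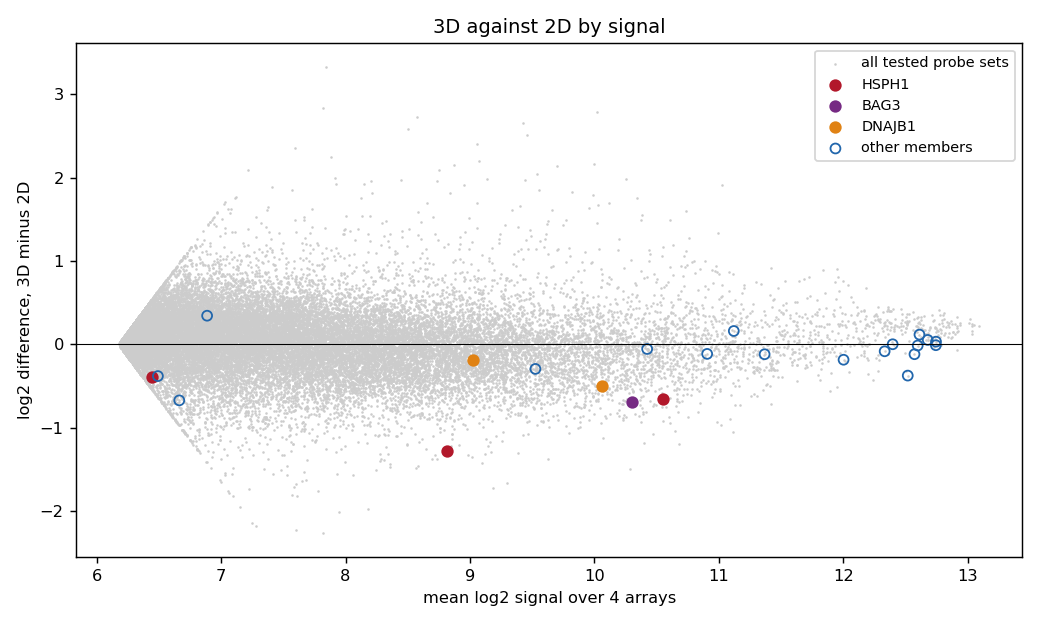
The log2 difference of 3D minus 2D (vertical axis) against the mean log2 signal over the 4 arrays (horizontal axis) for all 28651 tested probe sets (grey) and the members (coloured). BAG3, DNAJB1 and the brighter HSPH1 probe sets lie at middle signals below 0, while the brightest members lie near 0, below most grey points of like signal.

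The second comparison was of the ARHGAP8 line with the empty-vector line. Of the 24 probe sets 0 passed, 0 also at an unadjusted p under 0.05. Over all 28651 probe sets limma called 0.0% in each direction, with 7.06% at an unadjusted p under 0.05. The members' differences were small, from -0.13 to 0.27 log2, and 19 of 24 were above 0, with a median of 0.097 against -0.0033 over all. The 24 were higher in the ARHGAP8 line within both cultures for 9, against 24.5% of all, and lower within both for 2, against 25.4%.

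Probe set 200800_s_at of HSPA1A and HSPA1B read 714 and 920 in the ARHGAP8 line in 3D and 2D, against 620 and 725 in the empty-vector line. The difference was 0.27 ± 0.16 (95% interval -0.077 to 0.62; adjusted p 0.812, limma). The dim 235573_at of HSPH1 also gave 0.27, and 0.59 without a floor. In the other shared probe sets, 200799_at and 202581_at, both ARHGAP8 arrays lay above both empty-vector arrays, by 0.19 and 0.18. HSPA8 probe set 224187_x_at was the third of 3 members without overlap between the lines, against 13.2% of all probe sets (0 lay below without overlap, against 14.1%), with 7207 and 7018 in the ARHGAP8 line and 6481 and 6762 in the empty-vector line. HSPH1 and BAG3, which fell in 3D, differed between the lines by 0.13 (206976_s_at) and 0.11, with 95% intervals of -0.22 to 0.47 and -0.23 to 0.46. HSPB1 gave 0.0021 (95% interval -0.36 to 0.36). The signs for HSPA8, HSPB1 and HSPD1 turned after cyclic loess and quantile normalization.

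**Figure D4:**
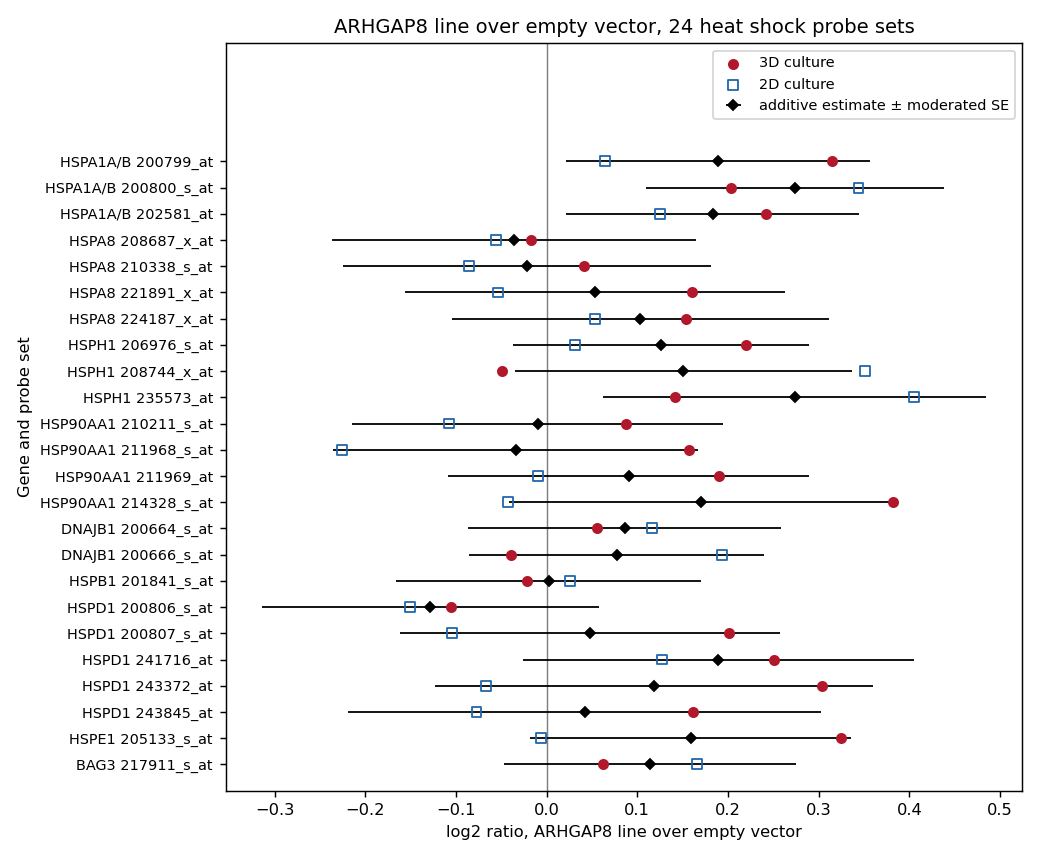
The log2 ratio of the ARHGAP8 line over empty vector (horizontal axis) for each of the 24 probe sets, in 3D (filled circles) and in 2D (open squares), with the additive estimate and its moderated SE (diamonds and bars). All values lie between -0.23 and 0.41, and the 3 shared HSPA1A and HSPA1B probe sets lie right of 0 in both cultures.

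Whether the line difference depended on the culture has no test with 1 array per group. In 3D 19 of the 24 ratios between the lines were above 0, with a median of 0.16, and in 2D 12 of 24, with a median of 0.010. Over all probe sets tested the median was 0.0023 in 3D, with quartiles of -0.25 and 0.26. In 2D it was -0.0014, with quartiles of -0.18 and 0.16. The 3D ratios use the array with the raised ribosomal RNA signal. The difference of the ratios, 3D minus 2D, ran from -0.40 for 208744_x_at of HSPH1 to 0.43 for 214328_s_at of HSP90AA1. None of the 24 reached 2-fold, against 5.26% of all probe sets.

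Around the members, 10 lists of chaperone and heat shock response genes held 114 genes, of which 97 were tested by 1 probe set each. In 3D 8 fell and 1 rose, and between the lines 0 passed. Of all probe sets 1.87% fell and 1.63% rose in 3D, but 22576 of the 28651 had a mean signal under 500, where 1.37% fell. At mean signals of 500 to 2000, 5.58% fell. Fitted with 1 probe set per gene, 550 of 13239 genes fell and 375 rose, so the share for all probe sets is a low yardstick for these lists. Over 10 settings, the reported one included, DNAJB6 and CRYAB passed in 9, STIP1 and DNAJC9 in 8, BAG2 and SERPINH1 in 6, and DNAJC2, CCT5 and CCT6A in 4. The median culture difference of the 97 was -0.16, against 0.034 over all probe sets and -0.071 over those with mean signals of 500 to 2000.

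Of 13 tested Hsp90 genes and cochaperones 1 fell and 0 rose, with a median of -0.30. STIP1, which passes clients between Hsp70 and Hsp90, read 585 and 538 in 3D, against 1104 and 1015 in 2D. It fell by 0.92 ± 0.16 (limma, adjusted p 0.00575), and its other probe set gave -0.93. HSP90AB1, the constitutive Hsp90, was at -0.35 and did not pass. Of 16 J-domain genes 3 fell and 0 rose, with a median of -0.26. DNAJB6, which suppresses aggregation, fell by 1.17 with 147 and 141 in 3D, against 350 and 302 in 2D. DNAJC9, a histone chaperone, fell by 0.83, with a median of -0.43 over its other probe sets, and DNAJC2, which acts at the ribosome, by 0.65. Of 11 Hsp70 nucleotide exchange and partner genes BAG2 fell, by 0.90, although its other probe set gave 0.11, and 0 rose; the list median was -0.19.

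Of 12 genes of TRiC, the cytosolic chaperonin of actin and tubulin, and its partner prefoldin, 2 fell and 0 rose, with a median of -0.31. These were the subunit genes CCT5, which fell by 0.70 with its other probe set at 0.47, and CCT6A, which fell by 0.62 with its other at -0.49. Of 4 tested small heat shock protein genes 1 rose and 0 fell, with a median of 0.13. CRYAB, alpha B-crystallin, read 298 and 561 in 3D, against 161 and 155 in 2D. It rose by 1.37 ± 0.25 (limma, adjusted p 0.00737), with ratios of 0.89 in the ARHGAP8 line and 1.85 in the empty-vector line. HSPB8, the partner of BAG3, was at -0.38 and did not pass.

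The list of other HSF1 targets, which shares genes with the lists above, had 18 tested members, of which 3 fell and 1 rose, with a median of -0.26. DNAJB6, STIP1 and CRYAB are those above. The third that fell was SERPINH1, a collagen chaperone of the endoplasmic reticulum, by 1.02 ± 0.21, with 238 and 406 in 3D, against 640 and 624 in 2D. Its ratio was -1.43 in the ARHGAP8 line and -0.62 in the empty-vector line, which does not use the ARHGAP8 3D array. Of 3 tested genes of the heat shock factor list 0 passed, with a median of -0.059. HSF1 itself read 137 and 227 in 3D, against 249 and 222 in 2D. The ARHGAP8 3D array alone was low, and the difference of -0.41 did not pass (adjusted p 0.464, limma). HSBP1, a binding partner of HSF1, was at 0.12.

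The remaining lists had 0 genes past the test in limma. Among 7 other Hsp70 and Hsp110 genes the median was 0.14, with HSPA14 at -0.60 and HSPA12A at 0.35 the widest. Among 13 genes of mitochondrial protein quality control it was -0.073, with CLPB at -0.69 and CLPX at 0.43. The other probe set of CLPB was at 0.14 and that of CLPX at -0.055. Among 15 endoplasmic reticulum chaperones it was -0.031, with DNAJB9 at 0.65 and CRELD2 at -0.54.

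**Figure D5:**
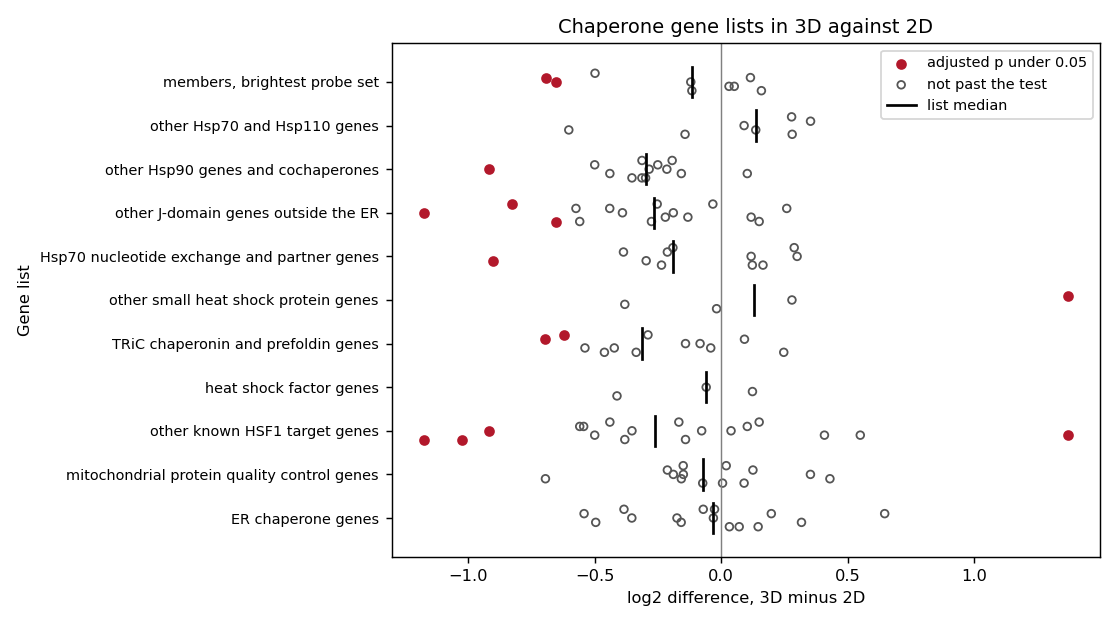
The log2 difference of 3D minus 2D (horizontal axis) for the members by their brightest probe sets and for the genes of the 10 lists, 1 point per gene, filled where limma's adjusted p was under 0.05, with a black line at each list's median. Filled points lie left of 0 except CRYAB, which appears in 2 lists at 1.37.

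By each gene's brightest probe set, BAG3 had the widest range over the 4 arrays, 0.81 log2. Among 11194 other genes, those with the most similar centred log2 profile over the 4 arrays were ORC1, HINT3, NUP153, PSMD5 and CLPB, with root mean square differences of 0.0126 to 0.0234. The median over all genes searched was 0.398. HSPH1 was at 0.0763 and rank 79 and DNAJB1 at 0.104 and rank 171, while the other members were at rank 3000 or beyond. With 4 arrays such likeness is a description, and the signals of ORC1, at 80.0 and 75.1 in 3D and 134 and 119 in 2D, were close to the floor.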

How the data were processed

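Per the labels' protocols, total RNA was primed with a poly(T) oligomer, amplified by in vitro transcription in repeated rounds and hybridised, 1 array per group. Per the submitters' processing notes, the deposited table holds the MAS5 signal intensity of each probe set, on a linear scale; no version, and no detection call, is used here. The number of arrays limits the precision.

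Signals were scaled to a 2% trimmed mean of 150.0, which the deposited values already had, floored at 72.3 and taken to log2. Plasmid and culture were fitted together, without an interaction, to 28651 of 54613 probe sets (above the floor on at least 2 arrays; control probe sets left out) with limma 3.58.1 in R 4.3.3 (eBayes with intensity trend, two-sided, Benjamini-Hochberg adjustment, threshold 0.05). With 1 residual degree of freedom and 13.9 of the prior, each SE draws mostly on other probe sets of like signal, and p-values leave out variation between separate lines or cultures. On simulated data of the same size the fit recovered the known differences without bias of note, but in most draws false calls made up more than the threshold allows, so adjusted p-values here may be too small. Symbols were updated through RefSeq.

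The members and gene lists were chosen with earlier results of these data known. All member probe sets are given; a gene is summarised by its brightest probe set naming it alone, or a shared one where there is none. From each list at most 4 genes past the test are named per comparison, or the 2 with the widest difference where none passed. HSP90AB1 and HSPB8 were named after their values were seen. For likeness, the 5 genes closest to the member of widest range were taken. Alternatives were the scaling, floor, pseudocount, filter, variance trend, unit tested and leaving out each array.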

Additional observations from a re-analysis of the deposited data

Results flagged for a closer look

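The control probe sets of ribosomal RNA, which enter no comparison, gave a signal on the ARHGAP8 3D array far above the other arrays. The median signal of the 18S ribosomal RNA probe sets was 626 on the ARHGAP8 3D array, against 27.7 with empty vector in 3D, 49.4 with ARHGAP8 in 2D and 44.9 with empty vector in 2D. That of the 28S ribosomal RNA probe sets was 1390, against 117, 119 and 94.4 in the same order. The part of these controls in the heat shock signals of that array was not tested.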

How the results depend on the processing

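No paired analysis was possible because each group is 1 array, apart from the reported fit itself, which compares the cultures within each line. With 1 array left out the contrasts are single ratios without a test: over the 24 probe sets the culture median ran from -0.22 to -0.03 and the line median from 0.010 to 0.16. The number of probe sets called for culture was 1001 (466 higher, 535 lower), and it was 516 after cyclic loess (298 higher, 218 lower), 506 after quantile normalization, 588 without a floor, 360 without the intensity trend, 37 on the mean over probe sets of a gene and 0 with no filter, where 3266 were under an unadjusted p of 0.05. The causes were not tested. Of the member probe sets 3 passed for culture, and 1 passed (208744_x_at of HSPH1) after cyclic loess, without a floor, with a pseudocount of 16 and without the trend, and 0 with no filter or on gene means. BAG3 no longer passed under 6 of 10 alternatives (adjusted p in limma 0.0521 to 0.783) and the brightest HSPH1 probe set under 7 (0.0573 to 0.783). For the lines 0 probe sets were called, 17 with 1 probe set per gene and 28 with those above the floor on all 4 arrays, none of them members. Under the other scalings and units, small differences that changed sign in culture were HSP90AA1 (-0.069), HSPA8 (-0.15) and HSPD1 (-0.12) after quantile normalization and HSPD1 (-0.17) on gene means; between the lines they were HSPA8 (-0.030 after cyclic loess, -0.073 after quantile), HSPB1 (-0.037 after each) and HSPD1 (-0.033 and -0.087). With 1 array left out, the sign also turned in culture for HSPA1A and HSPA1B (0.0092), HSPE1 (0.045), HSPA8 (-0.076), HSP90AA1 (-0.097) and HSPD1 (-0.10), and between the lines for DNAJB1 (-0.039), HSP90AA1 (-0.043), HSPE1 (-0.0062), HSPA8 (-0.053), HSPB1 (-0.022) and HSPD1 (-0.10). Values near the floor depend on it.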
